A study of Mus musculus with 6 samples.

Results

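The miR-34 and miR-449 products are a small family of microRNAs (miRNAs), and their levels were followed in the brain cortex of adult male mice. The libraries came from fmr1 KO mice and from fmr1 WT siblings of matched age, with 3 libraries per genotype, no treatment in either genotype, and no other allele named in the labels. Fmr1 encodes FMRP, an RNA-binding protein of neurons, and its loss underlies fragile X syndrome in humans. The labels do not say whether the KO is restricted to a cell type, do not name the strain, and do not tie each library to one animal, so the p-values measure the spread between these libraries. The members were set by name, with no threshold on a measured value, and make up 7 of the 1182 miRNAs listed in the deposited table: mmu-miR-34a-5p, mmu-miR-34b-5p, mmu-miR-34b-3p, mmu-miR-34c-5p, mmu-miR-34c-3p, mmu-miR-449a-5p and mmu-miR-449c-5p. The prefix for mouse is left out from here on.

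The miRNAs of this family are loaded into Argonaute and repress messenger RNAs that pair with their seed, the bases near the 5′ end. miR-34a, and to a varying degree miR-34b and miR-34c, are transcriptional targets of the tumour suppressor p53, and they restrain cell-cycle and survival genes such as Cdk6 and Bcl2. The miR-34b/c and miR-449 loci are strongly expressed in cells with motile cilia, such as those of airway, oviduct, ependyma and choroid plexus, where they are needed to build the cilia. A hairpin precursor yields a product from each arm, named 5p and 3p, and usually one of them is retained and the other largely degraded. In bulk tissue, fewer cells of a type and less RNA per cell cannot be told apart.

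The mature sequences show how the members are related. They are printed 5′ to 3′ from RefSeq (build GRCm38.p6), which held 6 of the 7 names, with the seed (bases 2 to 8) in capitals.
miR-34a-5p: uGGCAGUGucuuagcugguugu
miR-34b-5p: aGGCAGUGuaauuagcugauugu
miR-449a-5p: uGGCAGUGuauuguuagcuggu
miR-449c-5p: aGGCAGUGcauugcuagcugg
miR-34b-3p: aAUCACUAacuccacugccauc
miR-34c-3p: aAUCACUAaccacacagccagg
The 5p products carry one seed and the 3p products of miR-34b and miR-34c another. No other miRNA among the 1679 mature names of that table had either seed, though the table is not complete. Outside the seed the members diverge: counted from the 5′ end, miR-34a-5p and miR-34b-5p matched at 11 of 22 positions, miR-34a-5p and miR-449a-5p at 15 of 22, miR-449a-5p and miR-449c-5p at 18 of 21, and miR-34b-3p and miR-34c-3p at 17 of 22. The name miR-34c-5p had no entry.

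The genes of these miRNAs lie at 3 loci (GENCODE M21, GRCm38). The miR-34a hairpin is at chr4:150068454-150068555 on the plus strand, and its end overlaps an exon of the predicted gene Gm37795. The hairpins of miR-34b (chr9:51103562-51103645) and miR-34c (chr9:51103034-51103110) lie on the minus strand, 451 bases apart, opposite an intron of Btg4. Those of miR-449c (chr13:113035983-113036091) and miR-449a (chr13:113037534-113037624) lie on the plus strand in an intron of Cdc20b, a gene of multiciliated cells. The hairpin of miR-449b lies between them, 35 bases from that of miR-449a, and none of its products is among the members.

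Between 11182888 and 14385332 miRNA reads were counted in the KO libraries and between 13225790 and 15733876 in the WT libraries. Levels are given as CPM, read counts scaled to a common library size after normalisation by TMM, the trimmed mean of M-values, and fold changes come from the edgeR quasi-likelihood test over the 541 miRNAs that passed a filter on low counts. The KO libraries differed more among themselves: over tested miRNAs, log2 CPM had a median SD of 0.41 among KO libraries and of 0.14 among WT libraries. Neuron-enriched miRNAs were abundant throughout: 5 of 5 listed markers were tested, with 2 higher and 3 lower values in KO, and together they summed to 106062 to 121294 CPM in KO libraries and 117435 to 130449 CPM in WT libraries, led by miR-128-3p and miR-129-5p. Fmr1 messenger RNA is not a small RNA, so the genotype labels were not checked against it.

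The family was present at moderate levels and was dominated by miR-34c-5p. By its mean share of reads, miR-34c-5p ranked 95th of 1182 listed miRNAs, miR-34a-5p 185th, miR-34b-3p 362nd, miR-34c-3p 408th, miR-449a-5p 540th, miR-34b-5p 562nd and miR-449c-5p 1031st. The 5 products of the GGCAGUG seed group, to which miR-34c-5p is known to belong, summed to 283, 407 and 537 CPM in the KO libraries and to 347, 354 and 329 CPM in the WT libraries. Of this sum, miR-34c-5p made up 83.8% to 87.1% in KO and 83.5% to 87.0% in WT. The sum spanned a wider range among KO than among WT libraries, and the shares overlapped.

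**Figure D1:**
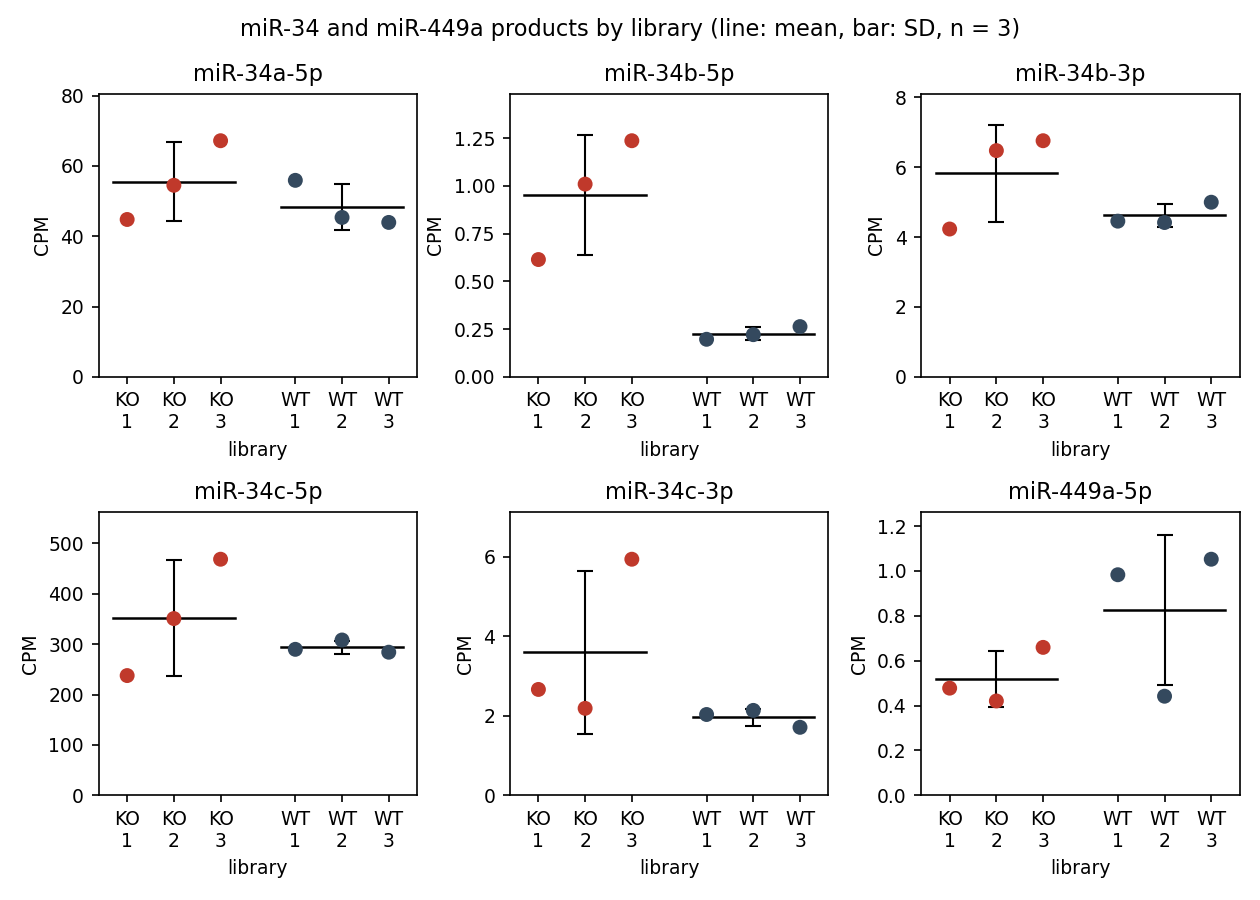
Level of 6 products in each library, in CPM on the vertical axis with KO libraries (red) left of WT libraries (blue). The line is the group mean and the bar the SD (n = 3). The KO points of miR-34c-5p span 238 to 468 CPM, around the WT points at 284 to 308 CPM. For miR-34b-5p every KO point lies above every WT point.

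Of the 7 products, 4 passed the count filter, and 0 of these 4 were called at an adjusted p under 0.05 (edgeR quasi-likelihood test, Benjamini-Hochberg over 541 miRNAs, with 0.0% of all tested miRNAs called). At an unadjusted p under 0.05 the count was also 0 of 4, against 6.47% of all tested miRNAs, and DESeq2 and limma-voom likewise gave 0 of 4 on either measure. The 4 had higher values in KO, as had 52.5% of all tested miRNAs, with a median log2 fold change of 0.29 against 0.03 over all.

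The leading member, miR-34c-5p, had 238, 351 and 468 CPM in KO (3481, 4169 and 5682 reads), against 290, 308 and 284 CPM in WT (4419, 4185 and 4317 reads). KO replicate 1 lay below and the other KO libraries above every WT library. By TPM, the authors' scaling by library total, KO replicate 2 was instead inside the WT range (290 TPM, against 274 to 316 TPM in WT). The log2 fold change was 0.26 (SE 0.25, 95% interval -0.30 to 0.82, edgeR adjusted p = 0.801). Its log2 CPM had an SD of 0.49 among KO libraries and of 0.06 among WT libraries.

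The p53-induced miR-34a-5p had 44.8, 54.5 and 67.2 CPM in KO (656, 648 and 815 reads), against 55.9, 45.4 and 43.9 CPM in WT (853, 616 and 668 reads). The groups overlapped. Its log2 fold change was 0.20 (SE 0.21, 95% interval -0.29 to 0.68, edgeR adjusted p = 0.822). The other arm of its hairpin, miR-34a-3p, was listed with 0 reads in each KO library and with 2, 0 and 1 reads in WT, so the hairpin gave almost exclusively its 5p product. Within a library, miR-34a-5p had 0.188, 0.155 and 0.143 reads per read of miR-34c-5p in KO and 0.193, 0.147 and 0.155 in WT (two-sided exact permutation test, p = 0.8, also 0.8 when adjusted over 8 ratios). The difference in log2 ratio was -0.02, and the SDs were 0.20 in KO and 0.21 in WT.

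The miR-34b hairpin gave mainly its 3p product. Levels of miR-34b-3p were 4.23, 6.48 and 6.76 CPM in KO (62, 77 and 82 reads), against 4.46, 4.42 and 5.0 CPM in WT (68, 60 and 76 reads). KO replicate 1 was the lowest library and the other KO libraries were the highest on this scale. By TPM, KO replicate 1 was instead inside the WT range (4.62 TPM, against 4.54 to 4.83 TPM in WT). The log2 fold change was 0.33 (SE 0.26, 95% interval -0.26 to 0.91, edgeR adjusted p = 0.791). The leading products of the neighbouring hairpins kept a similar proportion across libraries, with 56.1, 54.1 and 69.3 reads of miR-34c-5p per read of miR-34b-3p in KO and 65.0, 69.8 and 56.8 in WT, a comparison chosen after the values were seen and given with no test.

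The minor 3p product of the miR-34c hairpin had the largest estimate among the members past the filter. Levels of miR-34c-3p were 2.66, 2.19 and 5.94 CPM in KO (39, 26 and 72 reads), against 2.03, 2.14 and 1.71 CPM in WT (31, 29 and 26 reads). Each KO library was above each WT library on this scale, but KO replicate 2 only just, and with libraries scaled by total reads it fell inside the WT range (1.81 TPM, against 1.65 to 2.19 TPM in WT). All KO libraries lay above all WT libraries in 5.18% of tested miRNAs. The log2 fold change was 0.87 (SE 0.41, 95% interval -0.07 to 1.81, edgeR adjusted p = 0.749), and it was 0.33 without KO replicate 3.

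**Figure D2:**
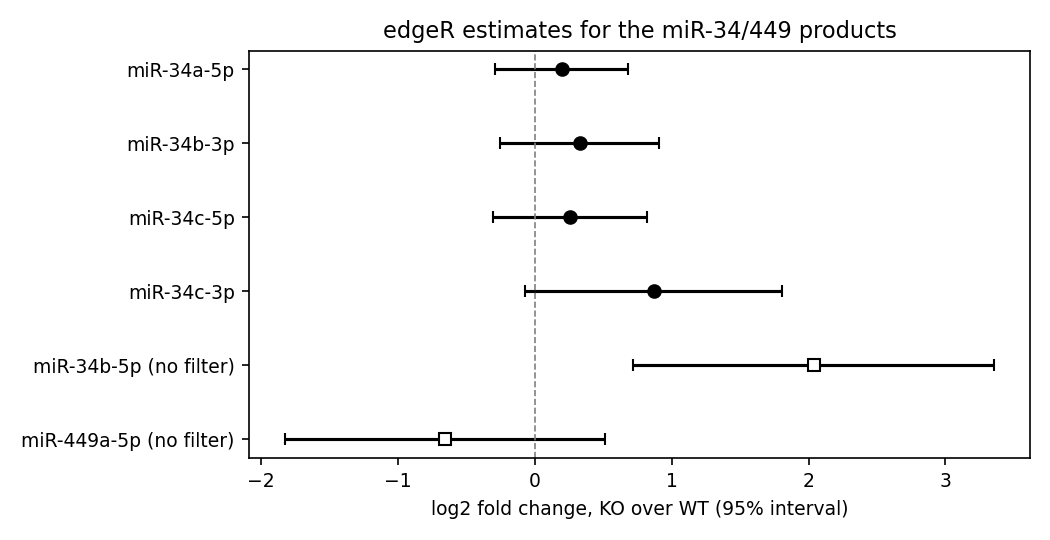
Log2 fold change of KO over WT (horizontal axis) with its 95% interval from edgeR. Filled circles are the 4 members that passed the count filter, and their intervals include 0. Open squares are members under the filter, from the fit without it, where the interval of miR-34b-5p runs from 0.72 to 3.36.

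KO replicate 3 was the highest library for each of these 4 members, as it was for 29.4% of all tested miRNAs. Relative to the WT mean it stood 0.48 log2 units higher for miR-34a-5p, 0.55 for miR-34b-3p, 0.67 for miR-34c-5p and 1.59 for miR-34c-3p. Without it, the log2 fold changes were 0.05 for miR-34a-5p, 0.22 for miR-34b-3p and 0.02 for miR-34c-5p. The edgeR test then called 18 of 560 miRNAs (3.21%), none of them from this family. Leaving out KO replicate 1 instead gave 0.34, 0.53 and 0.49 in the same order, and 1.07 for miR-34c-3p. In that fit the unadjusted edgeR p was 0.12 for miR-34a-5p, 0.0403 for miR-34b-3p, 0.0284 for miR-34c-5p and 0.0491 for miR-34c-3p. Of 561 miRNAs, 71 had an unadjusted p under 0.05 there and 0 were called. Some lists of markers of other cell types were also high in KO replicate 3 and others were not. Hox-cluster miRNAs were at their lowest there (54.7 CPM, against 67.6 to 75.1 CPM in WT), and muscle and liver miRNAs stood at 224 CPM, against 225 to 243 CPM in WT. The 3 choroid plexus miRNAs (miR-204-5p, miR-204-3p and miR-211-5p) were all tested, had higher mean values in KO, and summed to 776, 677 and 1636 CPM in KO, against 675 to 755 CPM in WT, with none at 0. The 9 miRNAs from introns of Htr2c, a serotonin receptor gene strongly expressed in choroid plexus, summed to 1007, 1534 and 4377 CPM in KO, against 889 to 1119 CPM in WT. Of these 6 were tested, all 6 with higher values in KO, while miR-764-3p was at 0 in every WT library and in 2 KO libraries, and miR-448-5p in WT replicate 2. Most of the sum was miR-1298-5p (898, 1443 and 4247 CPM in KO). It, miR-1264-5p, miR-448-3p and miR-764-5p were highest in KO replicate 3. The tested miR-1298-3p was about level in KO replicates 1 and 3 (76.6 and 76.2 CPM), and miR-1264-3p was at its lowest in KO replicate 3 (3.71 CPM). Epithelial and olfactory miRNAs (the miR-200 family and the miR-183 cluster, 8 of 8 tested and higher) summed to 61.6, 2051 and 1996 CPM in KO, against 169 to 724 CPM in WT, with miR-141-3p at 0 in KO replicate 1. The part of these cell types in the levels of the miR-34 products was not tested.

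**Figure D3:**
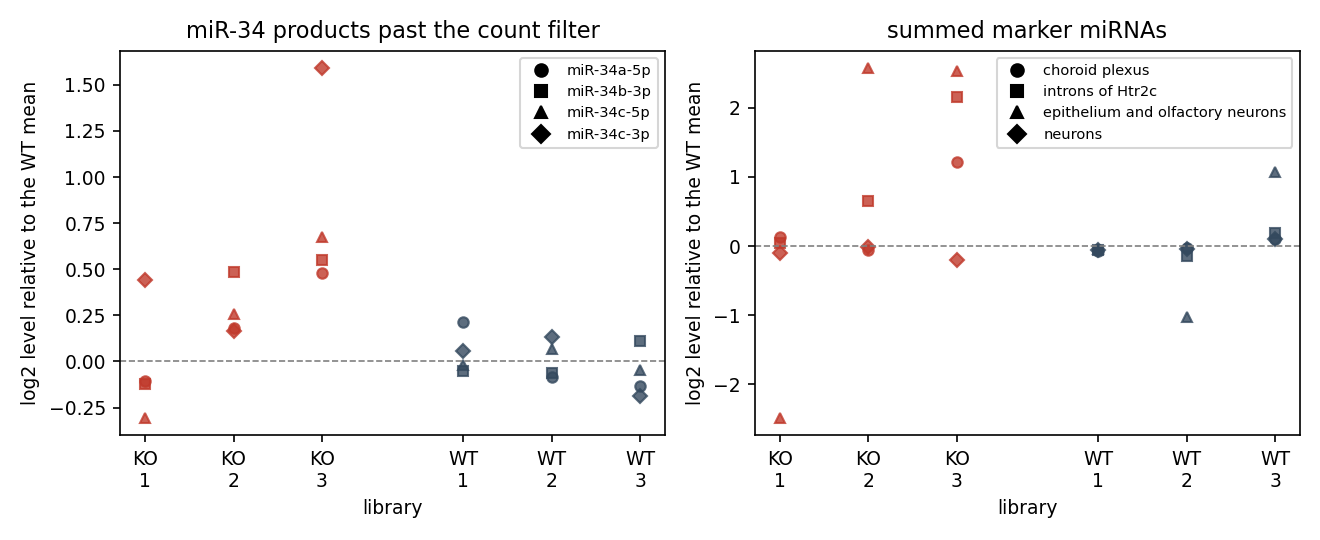
Log2 level of each library relative to the WT mean (vertical axis), with KO libraries (red) left of WT libraries (blue). The left panel shows the 4 miR-34 products past the count filter and the right panel the summed CPM of 4 marker lists. In KO replicate 3 the miR-34 products stand 0.48 to 1.59 above the WT mean and the choroid plexus and Htr2c sums are at their highest.

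Among the members, the widest separation between genotypes was in the scarcest product of the chromosome 9 pair, miR-34b-5p. It had 9, 12 and 15 reads in KO and 3, 3 and 4 reads in WT, or 0.614, 1.01 and 1.24 CPM in KO, against 0.197, 0.221 and 0.263 CPM in WT. Every KO library lay above every WT library, also by TPM, a separation found in 4.48% of all 1182 listed miRNAs. With all libraries it did not reach the count filter. The exact two-sided permutation test of its CPM gave p = 0.1, the smallest value that 3 against 3 libraries allow. It did pass the filter when KO replicate 1 or any 1 WT library was left out. In those fits the unadjusted edgeR p was 0.00294 to 0.0145 and the adjusted p 0.132 to 0.978. In the fit without the filter its log2 fold change was 2.04 (SE 0.66, 95% interval 0.72 to 3.36), with an unadjusted p of 0.00242 and an edgeR adjusted p of 0.573. In that edgeR fit 4.74% of 1182 miRNAs had an unadjusted p under 0.05. Of the 7 members, miR-34b-5p and miR-34c-3p were among them. For miR-34c-3p the edgeR adjusted p in that fit was 0.793. The higher value of miR-34b-5p in KO did not pass the correction. Counting error alone is wide for a single library at this depth. The exact 95% Poisson interval of 9 reads in the lowest KO library runs from 4.12 to 17.1. That of 4 reads in the highest WT library runs from 1.09 to 10.2. Summed over libraries, miR-34b-5p had 36 reads in KO and 10 in WT, and no interval was computed for these sums. The log2 fold change was 1.80 without KO replicate 3 and stayed between 1.80 and 2.26 whichever library was left out, with edgeR adjusted p from 0.113 to 0.932. DESeq2 gave an unadjusted p of 0.0112 and an adjusted p of 0.999.

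Ratios within a library need no scaling between libraries, and those with miR-34b-5p as the denominator showed the same separation. They rest on the same miR-34b-5p reads, so they restate that separation and do not add to it. There were 6.89, 6.42 and 5.47 reads of miR-34b-3p per read of miR-34b-5p in KO, and 22.7, 20.0 and 19.0 in WT, so the minor arm made up a larger part of the hairpin's reads in every KO library. The log2 ratio averaged 2.59 ± 0.16 for KO and 4.16 ± 0.11 for WT (mean ± SD of 3 libraries), a difference of -1.58 (two-sided exact permutation test, p = 0.1, or 0.267 adjusted over 8 ratios). Against the abundant neighbour, there were 387, 347 and 379 reads of miR-34c-5p per read of miR-34b-5p in KO and 1473, 1395 and 1079 in WT, a difference of -1.67 in log2 ratio (exact p = 0.1, adjusted p = 0.267). With a pseudocount of 5 reads in place of 0.5 these differences were -0.91 for the miR-34b arms and -1.0 for miR-34c-5p over miR-34b-5p. These groups did not overlap, and no ratio could reach a p under 0.05 in this design. The 3 WT denominators of miR-34b-5p rest on 10 reads in all, against 36 in KO. Of the 8 ratios, miR-34a-5p over miR-34a-3p was separated as well (exact permutation p = 0.1, adjusted p = 0.267), although its denominators are mostly 0. Where the denominator is 0, this ratio follows only the unscaled reads of miR-34a-5p (648 in KO replicate 2, 616 in WT replicate 2). It is thus not read as a difference between the arms.

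The arms of the miR-34c hairpin behaved less evenly. Reads of miR-34c-5p per read of miR-34c-3p were 89.3, 160 and 78.9 in KO and 143, 144 and 166 in WT, with overlapping groups and a difference in log2 ratio of -0.53 (exact permutation p = 0.3, adjusted p = 0.48). Reads of miR-34c-3p per read of miR-34b-3p, products with the same seed, were 0.629, 0.338 and 0.878 in KO and 0.456, 0.483 and 0.342 in WT (difference 0.43, exact permutation p = 0.5, adjusted p = 0.667). KO replicate 2 lay inside the WT range for the miR-34c arms and outside it for the miR-34b arms.

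**Figure D4:**
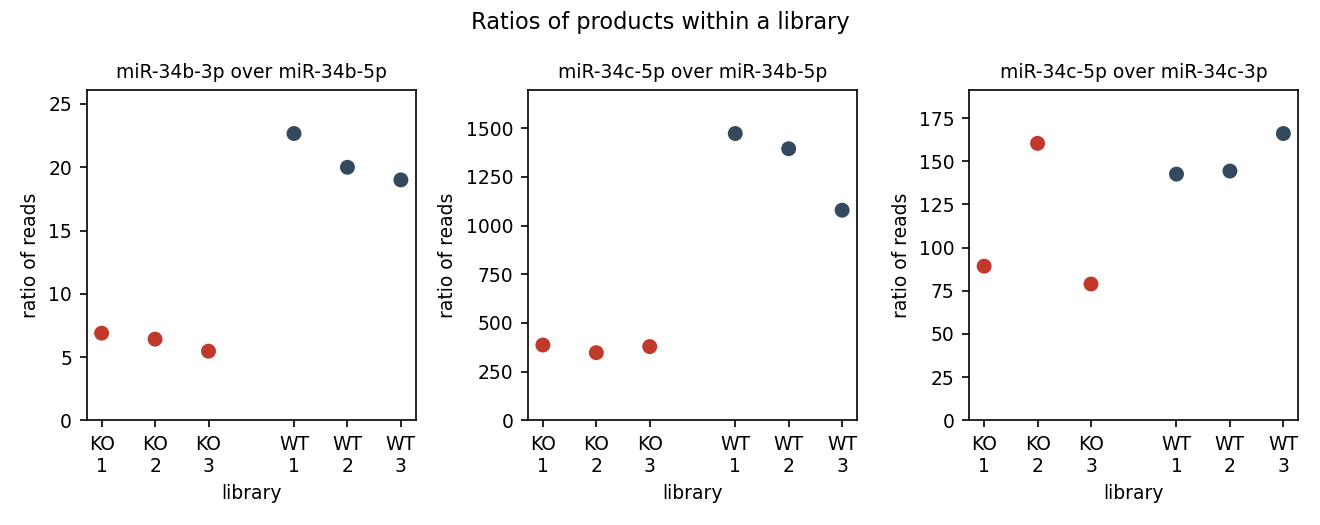
Ratio of reads of 2 products in each library (vertical axes, linear, from 0), with KO libraries (red) left of WT libraries (blue). The left and middle panels, both with miR-34b-5p as the denominator, separate the genotypes (5.47 to 6.89 in KO against 19.0 to 22.7 in WT on the left). The right panel, of the miR-34c arms, overlaps.

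The miR-449 locus, which marks multiciliated cells, was close to the detection limit. miR-449a-5p had 7, 5 and 8 reads in KO and 15, 6 and 16 reads in WT, or means of 0.519 CPM (SD 0.125) in KO and 0.826 CPM (SD 0.334) in WT. The groups overlapped through WT replicate 2 (exact permutation p = 0.3), and the log2 fold change without the filter was -0.65 (SE 0.59, 95% interval -1.82 to 0.52, edgeR adjusted p = 0.793). It was thus the one member with reads in every library whose value was lower in KO. Reads of miR-34c-5p per read of miR-449a-5p were 497, 834 and 710 in KO and 295, 698 and 270 in WT (difference in log2 ratio 0.76, exact permutation p = 0.2, adjusted p = 0.4). Reads of miR-449c-5p numbered 0 in every KO library, and 1, 1 and 0 in WT. A count of 0 allows up to 0.205, 0.252 and 0.247 CPM in the KO libraries (3 reads, counting error only), so no difference could be detected for it. In KO replicate 3, where the choroid plexus sum was highest, miR-449a-5p had 0.659 CPM, inside the WT range of 0.442 to 1.05 CPM.

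Other miRNAs that are known to be induced by p53 or processed with its help split in direction and did not pass the test. Of 13 listed, 12 were tested, with 8 higher and 4 lower values in KO, 0 called (0.0% of all tested), and a median log2 fold change of 0.20 against 0.03 over all tested miRNAs. The most abundant of them were the mural-cell miR-143-3p, with a log2 fold change of 0.16 (SE 0.15, edgeR adjusted p = 0.791), and miR-192-5p, with 265, 248 and 194 CPM in KO, against 235, 259 and 252 CPM in WT, and a log2 fold change of -0.07 (SE 0.18, edgeR adjusted p = 0.894). The list also holds miR-200c-3p and miR-141-3p, which belong to the epithelial list above. Erythroid miRNAs summed to 80.3 to 121 CPM in KO, against 75.4 to 83.4 CPM in WT, led by miR-486a-5p and miR-451a. Hox-cluster miRNAs, led by miR-10a-5p and miR-10b-5p, summed to 54.7 to 101 CPM in KO, and muscle and liver miRNAs, led by miR-1a-3p and miR-122-5p, to 213 to 294 CPM in KO.

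The profile of miR-34c-5p over the 6 libraries was nearest to that of miR-137-3p. Likeness was measured as the root mean square difference of mean-centred log2 CPM, where a smaller value is more alike, against the 540 other tested miRNAs. For miR-34c-5p, the neuron-enriched miR-137-3p stood at 0.08 log2 units, with 35.6, 47.6 and 66.4 CPM in KO, against 45.6, 48.5 and 41.2 CPM in WT. The 5 listed neuron-enriched miRNAs split in KO replicate 3. There miR-137-3p, miR-124-3p (2118 CPM) and miR-138-5p (361 CPM) were at their highest. The more abundant miR-128-3p and miR-129-5p were instead at their lowest (90410 and 13107 CPM). Next nearest to miR-34c-5p came miR-338-3p, an oligodendrocyte miRNA, and miR-3065-5p, both at 0.10. Their counts were identical in every library, so they are 1 profile. In the same order miR-34b-3p stood 8th at 0.15 and miR-34a-5p 16th at 0.17, whereas miR-34c-3p, from the same hairpin, stood 223rd at 0.41. The nearest to miR-34a-5p were miR-700-5p, miR-195a-5p and miR-30d-3p (0.08 to 0.14), and to miR-34b-3p they were miR-93-3p, miR-153-3p and miR-700-5p (0.13 to 0.14). The profile of miR-34c-3p was instead nearest to miR-29c-5p, at 0.10, and to the erythroid miR-451a, at 0.16, which had 43.3, 36.2 and 80.1 CPM in KO, against 28.8, 39.7 and 30.3 CPM in WT, and then to miR-15a-5p at 0.21. The other listed erythroid miRNAs were mixed. miR-486a-5p had 54.8, 42.3 and 38.4 CPM in KO, against 45.2, 41.7 and 44.5 CPM in WT. miR-144-3p had 0.751, 0.925 and 0.742 CPM in KO, against 0.655, 0.81 and 0.855 CPM in WT. miR-144-5p was, like miR-451a, highest in KO replicate 3, with 0.614, 0.925 and 1.32 CPM in KO, against 0.787, 1.25 and 0.855 CPM in WT. These distances are descriptions over 6 libraries, each with one depth and one scaling factor common to all its miRNAs.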

How the data were processed

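Small RNA from whole cortex was sequenced from one end after adaptor ligation, PCR and gel size selection, per the labels' protocols. Per the submitters' processing notes, Bowtie, DESeq2 and build mm10 were used, with no versions stated. Not given in the sources used here are the trimming, miRBase release, mismatches, multi-mapping and strand settings, so products of similar sequence may share reads. The authors deposited whole-number read counts per miRNA with no normalisation. They also deposited TPM, which equals count over column total (largest deviation 4.9e-10). Columns were matched to samples by the number in the title, and 0 columns belonged to no sample. Replicate numbers follow accession order.

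Tests on the counts used edgeR 4.0.16 in R 4.3.3 (filterByExpr, minimum count 10, TMM factors 0.8265 to 1.092, robust quasi-likelihood test, Benjamini-Hochberg over 541 miRNAs, threshold 0.05). Alternatives used limma 3.58.1 and DESeq2 1.42.0. Ratios used a pseudocount of 0.5 reads and exact two-sided permutation tests. Profiles used the same pseudocount. No pair of libraries within a genotype looked like duplicates (chi-square per degree of freedom at least 47.7). Pairs across genotypes were not compared. The members are given by name with no threshold on a value, but they, the lists and the tests were chosen with earlier results of these data known. Named miRNAs are the members, other listed products of their hairpins, the 2 most abundant of each list, and the 3 nearest in profile to each tested member. A few other list members are named to show the spread within a list. Reads are not unique molecules, so intervals and floors cover counting error only.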

Additional observations from a re-analysis of the deposited data

How the results depend on the processing

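The 4 tested members kept a higher value in KO, with 0 calls, under RLE size factors, total counts, TMM without the 5 most abundant miRNAs, no count filter, DESeq2, limma-voom and limma on log2(TPM + 1), and with each library left out. Over left-out libraries the log2 fold changes ranged from 0.05 to 0.34 for miR-34a-5p, 0.21 to 0.53 for miR-34b-3p, 0.02 to 0.49 for miR-34c-5p and 0.33 to 1.10 for miR-34c-3p. Without the filter they ranged from 1.80 to 2.26 for miR-34b-5p and from -0.97 to -0.48 for miR-449a-5p, alternatives added after seeing the data. Over all miRNAs, with the count filter, the calls ranged from 0 to 18 over left-out libraries, and the 18 came without KO replicate 3. Without the filter they were 0 with all libraries, 13 without KO replicate 1, 31 without KO replicate 2, 25 without KO replicate 3, 13 without WT replicate 3 and 0 without either other WT library. The cause was not tested. Differences in log2 ratio ranged from -0.83 to -0.33 for the miR-34c arms, -1.64 to -1.49 for the miR-34b arms, -1.79 to -1.59 for miR-34c-5p over miR-34b-5p (-0.91 and -1.0 for these 2 ratios with a pseudocount of 5 reads), 0.12 to 0.80 for miR-34c-3p over miR-34b-3p, 0.53 to 1.18 for miR-34c-5p over miR-449a-5p, and -0.13 to 0.10 for miR-34a-5p over miR-34c-5p, which changed sign. The ratio of miR-449a-5p over miR-449c-5p differed by 0.31 with a pseudocount of 0.5, -0.047 with 1 and -0.35 with 5 reads, and ranged from -0.39 to 1.08 over left-out libraries. That of miR-34a-5p over miR-34a-3p (1.3, or 0.24 with 5 reads) ranged from 0.92 to 1.85. These 2 rest on the pseudocount most, since the denominators are mostly 0. No paired analysis was possible because the labels give no numbers shared between genotypes. Depth limits miR-34b-5p, miR-449a-5p and miR-449c-5p, with 46, 57 and 2 reads in all.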
